A study of Saccharomyces cerevisiae with 36 samples.

Results

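The genes described here were NDT80 and 8 genes of later spore formation, SMK1, SPS1, SPS2, SPS4, SPS100, DIT1, DIT2 and SPR3, taken by their open reading frame names (YHR124W for NDT80, then YPR054W, YDR523C, YDR522C, YOR313C, YHR139C, YDR403W, YDR402C and YGR059W in this order) as a named set of 9 among the 6600 open reading frames counted. They were followed through 36 total RNA sequencing libraries of budding yeast, Saccharomyces cerevisiae, strain BY4742, grown in rich medium at 25 °C and shifted to 42 °C by adding warm medium. The groups were a strain lacking both MPK1 and RRP6 (mpk1rrp6), a strain lacking RRP6 (rrp6), a strain lacking MPK1 (mpk1) and the wild type (WT), each at 0, 10 and 45 min at 42 °C, with 3 libraries of each combination, described in the series design as biological replicates. MPK1 (SLT2 in the files) is the mitogen-activated protein kinase gene at the end of cell wall integrity signalling, and RRP6 is the gene of an exosome nuclease that trims and degrades RNA in the nucleus. The time labels carry no unit and were read as minutes because the treatment text names 45 min, and the number of independent clones behind each deletion strain was not given in the sources used here.

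Sporulation is the programme by which diploid a/α yeast cells, starved of nitrogen and a fermentable carbon source, pass through meiosis and wrap the 4 products in spore walls. Ndt80 is the transcription factor that switches on the middle genes of this programme, including its own gene, by binding a short DNA element in their promoters, and in growing cells the repressor Sum1 occupies many of the same elements. SMK1 encodes a mitogen-activated protein kinase of spore wall assembly, SPS1 a Ste20-related kinase of the same process, SPS2 a wall protein, SPR3 a sporulation septin, and SPS4 a protein made in sporulating cells. DIT1 and DIT2 encode the enzymes that make the dityrosine precursor of the outer spore wall, and SPS100 encodes a protein of spore wall maturation. BY4742 is a haploid α strain, grown here in rich medium, a state in which the programme is not run.

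In build R64, NDT80 lies on chromosome VIII (356561 to 358444, + strand), as does SPS100 (378219 to 379199, − strand). SPS1 (1485566 to 1487038, − strand), SPS2 (1483795 to 1485303, − strand), DIT1 (1274602 to 1276212, + strand) and DIT2 (1272234 to 1273703, − strand) lie on chromosome IV. SMK1 lies on chromosome XVI (666280 to 667446, + strand), SPS4 on XV (901858 to 902874, − strand) and SPR3 on VII (607563 to 609101, + strand).

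Promoter sequence is shown for the regulator, for SPS2 and for SPS100, because SPS2 and SPS100 had the widest changes of the set and differ in the elements they hold. Each is the 300 bases before the start codon in the R64 reference sequence (RefSeq), written on the gene's own strand: NDT80 chrVIII:356261-356560 on the + strand, SPS2 chrIV:1485304-1485603 on the − strand and SPS100 chrVIII:379200-379499 on the − strand. Capitals mark the Ndt80 element, GNCACAAA or GNCGCAAA on either strand, in NDT80 and SPS2, whose window begins within the end of the upstream gene SPS1, and the stress response element AGGGG, read here as CCCCT, in SPS100.
NDT80: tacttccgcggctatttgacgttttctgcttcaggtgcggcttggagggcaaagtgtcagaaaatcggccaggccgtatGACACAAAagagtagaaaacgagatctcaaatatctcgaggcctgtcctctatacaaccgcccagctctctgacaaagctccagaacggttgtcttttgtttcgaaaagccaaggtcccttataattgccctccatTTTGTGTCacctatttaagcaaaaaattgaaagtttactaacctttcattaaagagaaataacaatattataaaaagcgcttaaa
SPS2: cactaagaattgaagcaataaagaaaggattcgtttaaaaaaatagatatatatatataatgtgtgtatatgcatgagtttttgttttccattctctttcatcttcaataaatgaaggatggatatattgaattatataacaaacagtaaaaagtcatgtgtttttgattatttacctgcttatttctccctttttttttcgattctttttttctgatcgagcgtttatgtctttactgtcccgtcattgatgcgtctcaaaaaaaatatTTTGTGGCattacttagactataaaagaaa
SPS100: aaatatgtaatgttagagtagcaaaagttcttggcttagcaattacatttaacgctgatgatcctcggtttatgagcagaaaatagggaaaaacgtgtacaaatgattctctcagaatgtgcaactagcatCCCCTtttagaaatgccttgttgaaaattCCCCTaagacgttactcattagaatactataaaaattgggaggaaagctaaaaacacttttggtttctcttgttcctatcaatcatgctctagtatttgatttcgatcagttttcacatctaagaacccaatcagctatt
The Ndt80 element was found in the promoters of 5 of the 9 genes and in 386 of 5897 promoters of the same length (6.55%). NDT80 held GACACAAA at bases −221 to −214 and again, on the opposite strand, at −85 to −78. SMK1 held GTCACAAA at −79 to −72, SPS2 held GCCACAAA at −30 to −23 and SPS4 held GCCACAAA at −192 to −185. SPR3 held GACACAAA at −290 to −283 and GACGCAAA at −22 to −15. No match to these letters lay in the window of SPS1, SPS100, DIT1 or DIT2.

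The stress response element AGGGG, the site of the general stress factors Msn2 and Msn4, was found in 4 of the 9 promoters and in 22.5% of all promoters, searched on both strands. SPS100 held it at −169 to −165 and −140 to −136, DIT1 at −250 to −246, DIT2 at −233 to −229 and SPR3 at −104 to −100. SPR3 was thus the one gene of the 9 with both elements, and SPS1 had neither. The heat shock element, written as the blocks GAA, TTC and GAA or TTC, GAA and TTC with NN between blocks, was in 0 of the 9 and in 0.882% of all promoters. The site TAGCCGCC of the meiotic repressor Ume6 was in 0 of the 9 and in 1.36%. A match to such letters is a description of the sequence, not evidence of binding, and no match means that these letters are absent from the 300 bases.

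**Figure D1:**
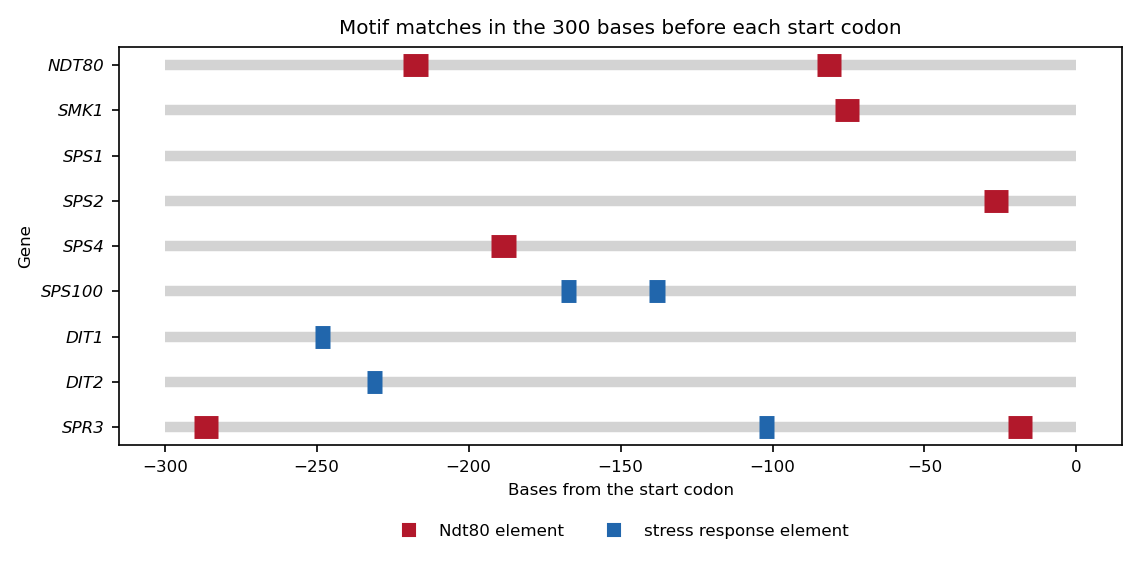
Positions of motif matches in the 300 bases before the start codon of each gene. The x axis gives bases from the start codon, grey bars are the windows, red blocks are Ndt80 elements and blue blocks are stress response elements. NDT80 and SPR3 each hold a pair of Ndt80 elements, SPS100 holds a pair of stress response elements and the window of SPS1 holds neither.

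Libraries held from 2235918 to 12072112 counted reads. By these unscaled totals 3 counts corresponded to 0.249 to 1.34 CPM, the reads of a gene scaled to a common library size. The CPM of genes given below use trimmed-mean scaled library sizes, by which the 3 counts of SPR3 in WT 45 min A stood at 2.23 CPM. SLT2 had 6 counts in total over the 18 libraries of strains lacking it and RRP6 had 2, against 111 to 1780 and 40 to 1010 counts in each library of the other strains. Replicates correlated with r of at least 0.953 across genes, and the lowest values were those of letter C with letter B in heated mpk1rrp6 cells (0.958 at 10 min and 0.953 at 45 min). Calls lost without both of those letter C libraries are given with and without them. The labelled α haploid was checked with marker genes. The α-cell genes MF(ALPHA)1, SAG1, MF(ALPHA)2 and STE3 had medians over the libraries of 372, 177, 141 and 88.5 CPM, and all 4 were counted in every library. MATALPHA1, which has a silent copy elsewhere in the genome, had 0 counts in 35 of 36. The a-cell genes MFA1, AGA2 and MFA2 had medians of 2.00, 2.04 and 4.53 CPM and BAR1, STE6 and STE2 of 11.7, 12.9 and 22.4 CPM, while the haploid genes GPA1, STE4, STE18, FUS3 and RME1 had medians from 30.8 to 68.5 CPM.

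The transcripts were scarce before heat. In WT at 0 min the 3 libraries together held 15 counts of NDT80, 12 of SMK1, 76 of SPS1, 4 of SPS2, 198 of SPS4, 6 of SPS100, 46 of DIT1, 12 of DIT2 and 5 of SPR3. Ranked by CPM per kilobase of coding length among 5715 tested genes, 8 of the 9 lay between percentiles 1.70 and 10.3 in WT cells at 0 min and SPS4 at percentile 28.9. After 45 min at 42 °C, SPS100 reached 292 ± 70.1 CPM per kilobase in WT (SD, n = 3), at percentile 92.02, and SPS4 reached 52.9 ± 7.48. The other 7 lay between 2.70 for SPR3 and 14.4 for DIT2 in these WT libraries, between percentiles 1.29 and 21.3, and NDT80 itself, at 2.74, lay at percentile 1.35. In bulk RNA, more transcript per cell and more cells holding the transcript cannot be told apart.

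**Figure D2:**
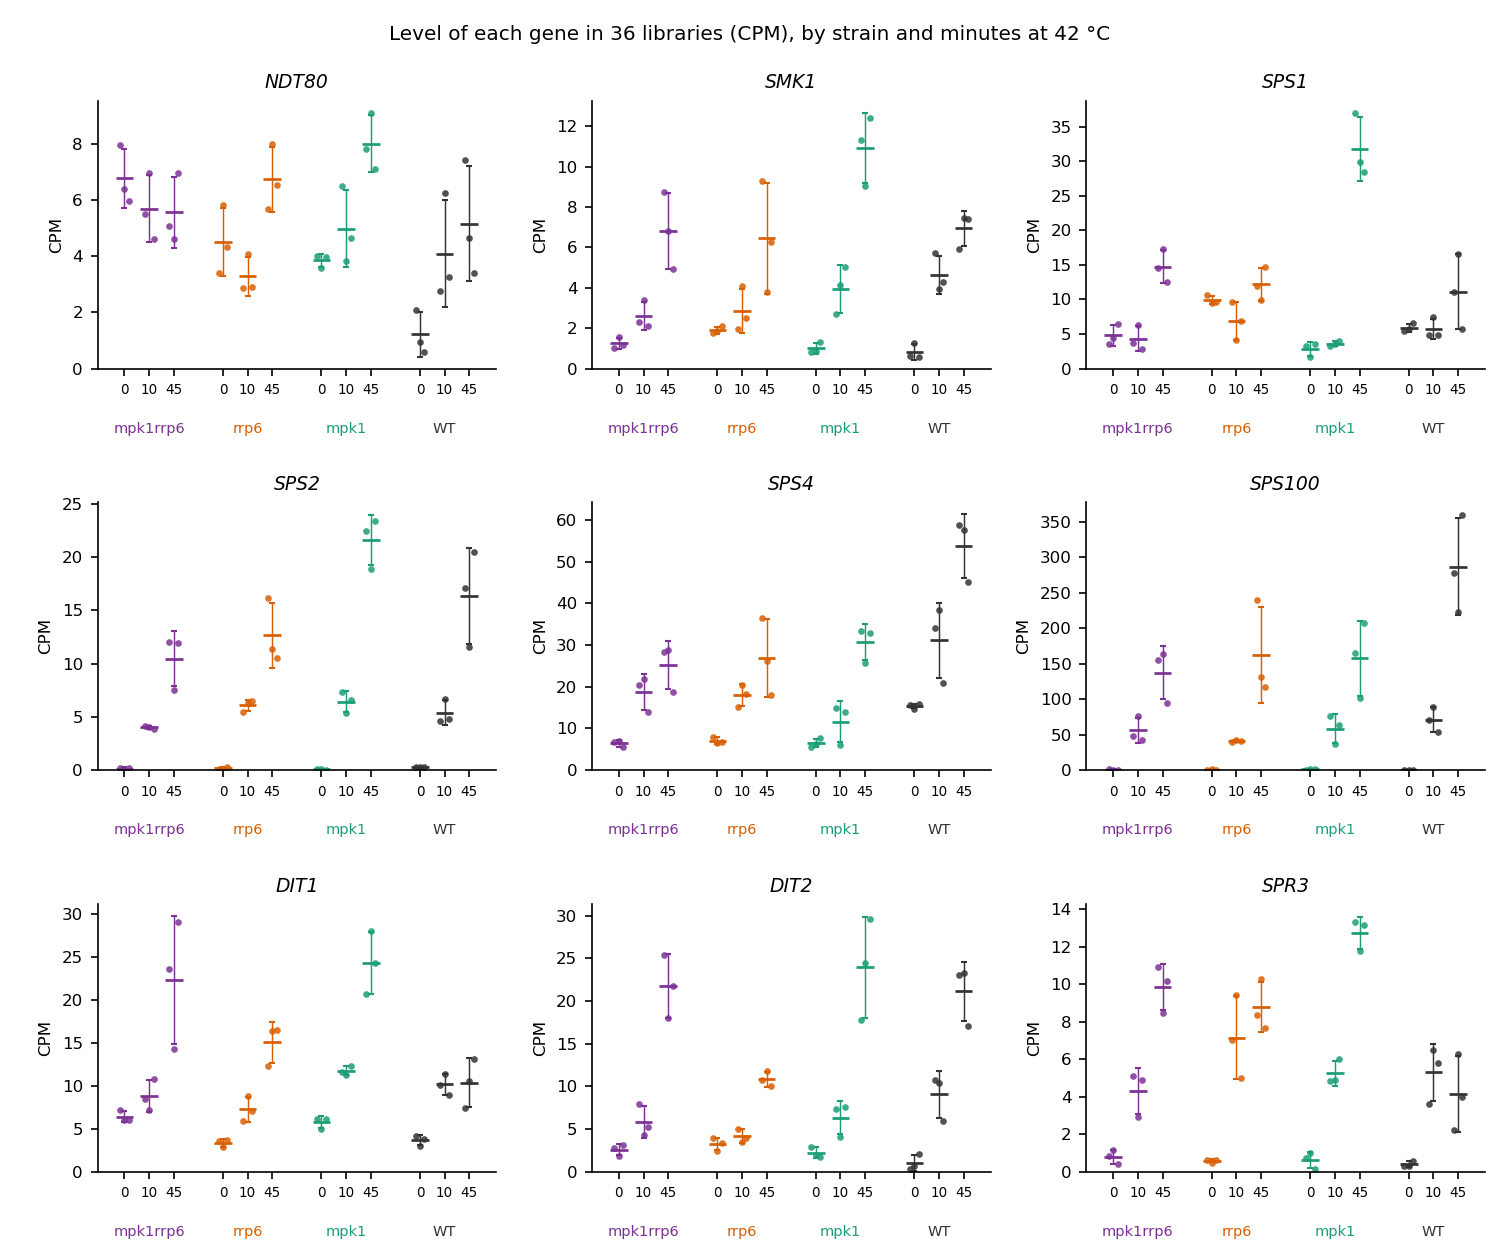
Level of each gene in every library, in CPM on a linear axis, by strain and minutes at 42 °C. Points are the 3 libraries of a group, horizontal bars are means and error bars are SD. SPS2, SPS100 and SPR3 stand near 0 in all strains before heat and above it in every heated library, while NDT80 is lowest in WT at 0 min.

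Most of these genes rose with heat in all 4 strains. Against 0 min, 60 of the 72 gene-by-comparison pairs rose and 0 fell by the quasi-likelihood test of edgeR at 0.05, with Benjamini-Hochberg adjusted p over 6005 genes. In these comparisons 35.2% to 38.9% of all tested genes fell. At an unadjusted p under 0.05 none fell either, and DESeq2 called 61 higher and 0 lower. By strain, 7 and 8 of the 9 rose at 10 and 45 min in mpk1rrp6 cells, where 38.4% and 40.8% of all tested genes rose, and 5 and 7 rose in rrp6 cells, where 38.1% and 40.8% did. In mpk1 cells 7 and 9 rose against 41.6% and 43.9% of all genes, and in WT 8 and 9 rose against 39.2% and 42.6%. The median log2 change over the 9 was 1.14 and 2.45 in mpk1rrp6 cells, 1.07 and 1.91 in rrp6 cells, 1.48 and 3.43 in mpk1 cells and 2.32 and 2.94 in WT at 10 and 45 min, while the median over all tested genes lay between 0.02 and 0.12 in these comparisons. Log2 fold changes are given with the standard error (SE) of the fit, n = 3 libraries per group.

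These changes are relative to the trimmed-mean scaling of the libraries. Scaling by total counts alone shifted the median of all genes by −0.17 to −0.76 in the heat comparisons and gave 54 pairs higher and 5 lower. Besides the calls below, it ended those of SMK1 and DIT2 in mpk1rrp6 cells (0.50 and 0.63) and of DIT1 in rrp6 cells (0.51), all at 10 min. The 5 lower values were those of NDT80 in mpk1rrp6 cells at 10 and 45 min (−0.82 and −0.85), of NDT80 in rrp6 cells at 10 min (−1.03), and of SPS1 at 10 min in mpk1rrp6 and rrp6 cells (−0.79 and −1.05). All other directions of called values were kept except that of DIT1 in mpk1rrp6 cells at 10 min, which stood at 0.49 ± 0.21 and at −0.04 with total counts. That call was also lost in a fit of only the libraries compared (0.49, adjusted p = 0.0702, edgeR), without both letter C libraries (0.31) and without any 1 of 4 libraries, mpk1rrp6 10 min C (0.30) or A (0.51) and mpk1rrp6 0 min B and C (0.42 each).

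**Figure D3:**
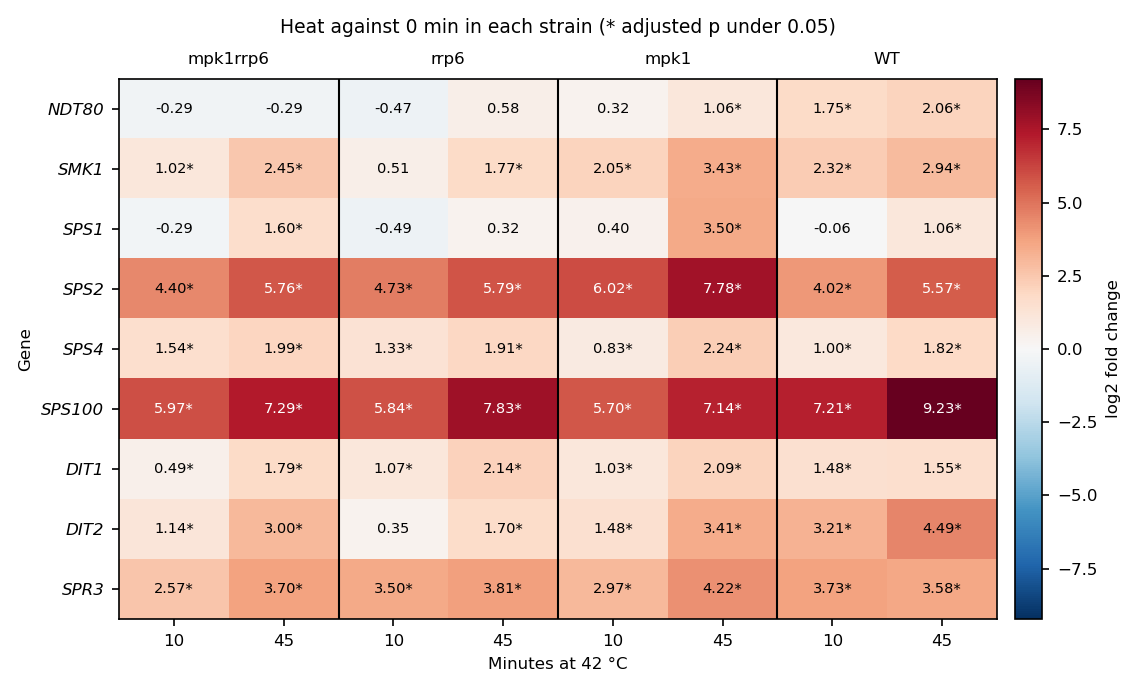
Log2 fold change of each gene at 10 and 45 min at 42 °C against 0 min in the same strain, with n = 3 libraries per group. Colours run from blue (lower) to red (higher), and asterisks mark an adjusted p under 0.05. SPS100 and SPS2 have the strongest colours in all strains, and NDT80 is marked in WT at both times, in mpk1 cells at 45 min and nowhere else.

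NDT80, the switch of the middle programme, rose in WT at both times and in mpk1 cells at 45 min, and it stayed under 10 CPM in all 36 libraries. In mpk1rrp6 cells its 3 libraries (A, B and C) had 7.96, 6.40 and 5.98 CPM at 0 min, 5.51, 6.97 and 4.61 CPM at 10 min and 5.09, 4.61 and 6.98 CPM at 45 min. In rrp6 cells it had 3.40, 5.81 and 4.32 CPM at 0 min, 2.86, 4.08 and 2.91 CPM at 10 min and 5.69, 7.98 and 6.53 CPM at 45 min. The times overlapped throughout in mpk1rrp6 cells, and in rrp6 cells the 45 min libraries lay above those at 10 min. In mpk1 cells it had 4.01, 3.58 and 3.98 CPM at 0 min, 6.49, 3.81 and 4.63 CPM at 10 min and 7.82, 9.10 and 7.09 CPM at 45 min. In WT it had 2.097, 0.949 and 0.594 CPM at 0 min, 2.75, 6.26 and 3.26 CPM at 10 min and 7.43, 4.65 and 3.42 CPM at 45 min, from 7, 6 and 2 counts before heat. Every heated WT library lay above every unheated WT library. The WT rise was 1.75 ± 0.40 at 10 min (adjusted p = 0.000273, edgeR) and 2.06 ± 0.43 at 45 min (adjusted p = 8.33e-05), and the mpk1 rise at 45 min was 1.06 ± 0.25 (adjusted p = 0.000294). The mpk1rrp6 values were −0.29 ± 0.25 and −0.29 ± 0.28 at 10 and 45 min, with adjusted p of 0.288 and 0.345, and the rrp6 values were −0.47 ± 0.30 and 0.58 ± 0.28 with adjusted p of 0.161 and 0.0579. By DESeq2 the rrp6 value at 45 min was called (0.63), as it was with the size factors of DESeq2 in edgeR (0.63) and without rrp6 0 min B (0.76) or WT 10 min B (0.58).

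The higher starting level of NDT80 in the deletion strains was itself called. At 0 min NDT80 averaged 6.78 ± 1.05 CPM in mpk1rrp6 cells, 4.51 ± 1.22 in rrp6 cells and 3.86 ± 0.238 in mpk1 cells, against 1.21 ± 0.785 CPM in WT (SD, n = 3 each). Each deletion library lay above all 3 WT libraries. The differences were 2.53 ± 0.36 for mpk1rrp6 against WT (adjusted p = 4.08e-06, edgeR), 1.93 ± 0.37 for rrp6 against WT (adjusted p = 0.000408) and 1.71 ± 0.39 for mpk1 against WT (adjusted p = 0.00238). At 10 min no difference from WT was called for NDT80, with 0.48, −0.30 and 0.28 for mpk1rrp6, rrp6 and mpk1, but without WT 10 min B the mpk1rrp6 value was 0.85 and called (adjusted p = 0.0268, edgeR). At 45 min mpk1 stood 0.71 ± 0.30 above WT (adjusted p = 0.0432), a call lost under DESeq2 (0.66), with its size factors in edgeR (0.66), in a fit of only the libraries compared (0.69) and without any 1 of 4 libraries, mpk1 45 min A (0.73) or B (0.59) or WT 45 min B (0.63) or C (0.57). Between deletion strains, mpk1rrp6 exceeded mpk1 at 0 min by 0.81 ± 0.25 (adjusted p = 0.0439), which was lost in 12 of the 36 fits that each left out 1 library, with values from 0.67 to 0.90 there. Those 12 included each of the 6 libraries compared, the lowest value being that without mpk1rrp6 0 min A.

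SMK1, the kinase of spore wall assembly, rose in 7 of its 8 heat comparisons. In mpk1rrp6 cells the libraries had 1.02, 1.56 and 1.15 CPM at 0 min, 2.29, 3.37 and 2.12 CPM at 10 min and 8.72, 6.79 and 4.95 CPM at 45 min. In rrp6 cells they had 1.75, 1.85 and 2.095 CPM at 0 min, 1.98, 4.08 and 2.50 CPM at 10 min and 9.28, 3.802 and 6.30 CPM at 45 min. In mpk1 cells they had 0.844, 0.869 and 1.33 CPM at 0 min, 2.70, 4.12 and 5.06 CPM at 10 min and 11.3, 9.03 and 12.4 CPM at 45 min. In WT they had 0.599, 1.27 and 0.594 CPM at 0 min, 5.71, 3.94 and 4.30 CPM at 10 min and 5.94, 7.48 and 7.41 CPM at 45 min. In mpk1rrp6, mpk1 and WT cells the 10 min libraries all lay above the 0 min libraries and below the 45 min libraries, and in rrp6 cells neighbouring times overlapped. The rise at 45 min was 2.45 ± 0.32 in mpk1rrp6, 1.77 ± 0.29 in rrp6, 3.43 ± 0.29 in mpk1 and 2.94 ± 0.40 in WT, and the value without a call was 0.51 ± 0.34 in rrp6 at 10 min.

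SPS1, the Ste20-related kinase, rose late and most in mpk1 cells. In mpk1 cells it had 3.27, 1.63 and 3.54 CPM at 0 min, 3.25, 3.51 and 4.00 CPM at 10 min and 37.0, 29.8 and 28.5 CPM at 45 min. In mpk1rrp6 cells SPS1 had 3.57, 4.41 and 6.47 CPM at 0 min, 3.76, 6.30 and 2.86 CPM at 10 min and 14.5, 17.2 and 12.5 CPM at 45 min. In rrp6 cells SPS1 had 10.6, 9.52 and 9.69 CPM at 0 min, 9.69, 4.08 and 6.87 CPM at 10 min and 11.97, 9.88 and 14.7 CPM at 45 min. The rrp6 libraries at 0 min lay above those of every other strain at 0 min. In WT it had 5.39, 5.70 and 6.54 CPM at 0 min, 4.87, 7.42 and 4.89 CPM at 10 min and 11.1, 16.6 and 5.70 CPM at 45 min. The mpk1 libraries at 45 min lay above every other library of the study for this gene, the next highest being 17.2 CPM in mpk1rrp6 cells at 45 min. The rise at 45 min was 1.60 ± 0.29 in mpk1rrp6, 3.50 ± 0.29 in mpk1 (adjusted p = 1.99e-12, edgeR) and 1.06 ± 0.33 in WT, and 0.32 in rrp6, where no rise was called. At 10 min the 4 values lay between −0.49 and 0.40 and none passed the test, although the rrp6 value, −0.49, was −0.81 and called without rrp6 10 min A, and −0.27 and not called without rrp6 10 min B. The WT call at 45 min rested on library B, without which the value was 0.48 and not called, and it was 0.31 and not called with total counts.

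SPS1 and SPS2 lie in tandem on chromosome IV, with SPS1 262 bases upstream of SPS2, and moved differently. SPS2, the wall protein gene, had 2, 0 and 3 counts in mpk1rrp6, 1, 1 and 5 in rrp6, 1, 1 and 0 in mpk1 and 1, 2 and 1 in WT libraries at 0 min. At 10 min it had 4.17, 4.05 and 3.88 CPM in mpk1rrp6, 5.51, 6.28 and 6.45 CPM in rrp6, 7.30, 5.34 and 6.64 CPM in mpk1 and 4.66, 6.73 and 4.77 CPM in WT. At 45 min it had 11.996, 7.52 and 11.9 CPM in mpk1rrp6, 16.2, 11.4 and 10.5 CPM in rrp6, 22.5, 18.9 and 23.4 CPM in mpk1 and 17.1, 11.5 and 20.5 CPM in WT. No 10 min library overlapped a 0 min or a 45 min library of its strain. The ratio of summed counts scaled by library size, 45 over 0 min, was 59.1 in mpk1rrp6 (95% exact interval 24.6 to 186), 59.4 in rrp6 (28.0 to 151), 268 in mpk1 (73.9 to 2219, from 2 counts at 0 min) and 46.9 in WT (17.8 to 175), where the intervals cover counting error only. At 10 min, when SPS1 had no call in any strain, SPS2 rose by 4.40 ± 0.41 in mpk1rrp6, 4.73 ± 0.39 in rrp6, 6.02 ± 0.46 in mpk1 and 4.02 ± 0.46 in WT.

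SPS4, made in sporulating cells, had the highest CPM of the set in WT before heat and rose in all 8 comparisons. The SPS4 libraries at 0 min held 6.74, 6.97 and 5.49 CPM in mpk1rrp6, 8.02, 6.55 and 6.68 CPM in rrp6 and 5.59, 6.30 and 7.66 CPM in mpk1. At 45 min they held 28.4, 28.9 and 18.6 CPM in mpk1rrp6, 36.5, 26.2 and 17.95 CPM in rrp6 and 33.4, 25.8 and 32.9 CPM in mpk1. In WT it had 15.6, 14.7 and 15.8 CPM at 0 min, 34.1, 38.3 and 20.9 CPM at 10 min and 58.7, 57.6 and 45.0 CPM at 45 min. All 9 deletion libraries lay below all 3 WT libraries both before heat and at 45 min. The rise at 45 min was 1.99 ± 0.28 in mpk1rrp6, 1.91 ± 0.27 in rrp6, 2.24 ± 0.26 in mpk1 and 1.82 ± 0.27 in WT, and none of the 6 tests of a response against that of WT passed for SPS4, with values from −0.18 to 0.54, although with total counts mpk1 at 45 min did (1.01). The weakest call, 0.83 ± 0.29 in mpk1 at 10 min, was lost without any 1 of mpk1 0 min A (0.69), mpk1 10 min A (0.63) and mpk1 10 min C (0.60), and with total counts (0.52).

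SPR3, the sporulation septin, had 1 to 10 counts in each library before heat and, like SPS2, called rises at every heated time. At 0 min it had 0.817, 1.14 and 0.409 CPM in mpk1rrp6, 0.617, 0.494 and 0.655 CPM in rrp6, 0.738, 0.977 and 0.147 CPM in mpk1 and 0.300, 0.316 and 0.594 CPM in WT. After 45 min SPR3 had 10.9, 8.49 and 10.2 CPM in mpk1rrp6, 8.38, 10.3 and 7.69 CPM in rrp6, 13.3, 11.8 and 13.2 CPM in mpk1 and 2.23, 6.27 and 3.99 CPM in WT. The mpk1rrp6, rrp6 and mpk1 libraries all lay above the WT libraries at that time. The rise at 10 min was 2.57 ± 0.35 in mpk1rrp6, 3.50 ± 0.35 in rrp6, 2.97 ± 0.36 in mpk1 and 3.73 ± 0.49 in WT, and at 45 min it lay between 3.58 and 4.22.

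Among the late genes, SPS100 had the widest change of the set in mpk1rrp6, rrp6 and WT cells. In mpk1 cells SPS2 changed more, from 2 counts at 0 min. At 0 min it had 1.23, 0.711 and 0.655 CPM in mpk1rrp6, 0.309, 0.989 and 0.786 CPM in rrp6, 0.422, 1.74 and 1.18 CPM in mpk1 and 0.300, 0.791 and 0.00 CPM in WT. At 10 min it had 48.7, 76.2 and 43.2 CPM in mpk1rrp6, 39.2, 42.7 and 41.0 CPM in rrp6, 76.0, 36.3 and 63.5 CPM in mpk1 and 70.3, 88.9 and 53.5 CPM in WT. At 45 min it had 155, 164 and 94.3 CPM in mpk1rrp6, 240, 131 and 117 CPM in rrp6, 165, 102 and 207 CPM in mpk1 and 278, 223 and 359 CPM in WT. Each time stood apart from the one before it in every strain, and WT at 45 min held the 2 highest libraries of the study. The ratio of summed counts scaled by library size, 45 over 0 min, was 161 in mpk1rrp6 (95% exact interval 108 to 249), 231 in rrp6 (153 to 365), 135 in mpk1 (93.0 to 203) and 568 in WT (261 to 1550, from 6 counts at 0 min). These intervals too cover counting error only and leave out the spread between replicates. An antisense RNA, SUT169, covers most of SPS100 on the opposite strand (chromosome VIII, 378254 to 379237, R64) and is not among the counted features. Whether counting used strand was not given in the sources used here, so reads of SPS100 and SUT169 cannot be told apart from the labels. Of genes lying inside genes of the opposite strand, CPP2, ADF1 and YJL077W-A were counted in all 36 libraries, with 95587, 5686 and 3001 counts. NAG1 had 3285 counts in 32 libraries, VAM10 228 in 31, SLM6 44 in 21, YIL105W-A 20 in 14 and YER190C-B 0. Whether counting used strand was not tested.

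DIT1 and DIT2 are divergent neighbours on chromosome IV, with 898 bases between them, and both encode steps of dityrosine synthesis. DIT1 had 7.15, 5.97 and 6.06 CPM in mpk1rrp6, 3.60, 2.84 and 3.67 CPM in rrp6, 6.12, 4.99 and 6.19 CPM in mpk1 and 4.19, 3.01 and 3.86 CPM in WT at 0 min. After 45 min DIT1 had 23.6, 14.3 and 29.1 CPM in mpk1rrp6, 12.3, 16.3 and 16.6 CPM in rrp6, 20.7, 28.0 and 24.3 CPM in mpk1 and 7.43, 10.5 and 13.1 CPM in WT. All mpk1rrp6 and mpk1 libraries lay above WT at 45 min. At 10 min it had 5.95 to 12.3 CPM over the 12 libraries. DIT1 rose by 1.79 ± 0.21 in mpk1rrp6, 2.14 ± 0.23 in rrp6, 2.09 ± 0.20 in mpk1 and 1.55 ± 0.28 in WT at 45 min.

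DIT2, the cytochrome P450 of the pair, changed more than DIT1 in WT. It had 2.76, 1.85 and 3.19 CPM in mpk1rrp6, 3.91, 2.47 and 3.40 CPM in rrp6, 2.95, 1.95 and 1.77 CPM in mpk1 and 0.300, 0.633 and 2.08 CPM in WT at 0 min. After 45 min DIT2 had 25.4, 17.96 and 21.8 CPM in mpk1rrp6, 10.8, 11.8 and 10.0 CPM in rrp6, 17.8, 24.5 and 29.6 CPM in mpk1 and 23.0, 23.3 and 17.1 CPM in WT. The rrp6 libraries were the lowest at 45 min, with no overlap with any other strain. DIT2 rose by 3.00 ± 0.29 in mpk1rrp6, 1.70 ± 0.30 in rrp6, 3.41 ± 0.29 in mpk1 and 4.49 ± 0.41 in WT at 45 min, and 0.35 ± 0.37 in rrp6 at 10 min was the one value of DIT2 without a call.

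From 10 to 45 min the set kept rising. Of 36 pairs 28 were higher at 45 than at 10 min and 0 lower, with 0 lower also at an unadjusted p under 0.05 and by DESeq2. The counts were 7 of 9 in mpk1rrp6, 7 in rrp6, 9 in mpk1 and 5 in WT, beside 17%, 16.3%, 26.6% and 26.1% of all tested genes higher in these comparisons. SPS1, SPS2, SPS100 and DIT2 were higher in all 4 strains, and the widest step was that of SPS1 in mpk1 cells at 3.10 ± 0.29. In WT the genes without a call were NDT80 at 0.31, SMK1 at 0.62, DIT1 at 0.07 and SPR3 at −0.14. Calls of SPS1 and SPS4 in WT (1.12 and 0.82) were lost without WT 45 min B (0.54) and WT 10 min C (0.58), and both were lost with total counts (0.77 and 0.44). A fit of only the libraries compared also ended that of SPS1 (1.0002). That of NDT80 in rrp6 cells (1.05) was lost without rrp6 10 min A (0.96), and that of NDT80 in mpk1 cells (0.74) without mpk1 10 min B (0.59), mpk1 45 min B (0.60) or mpk1 10 min C (0.71). SPS1 in rrp6 cells (0.81) lost its call without any 1 of rrp6 45 min A (0.83), rrp6 10 min B (0.58), rrp6 10 min C (0.78) and rrp6 45 min C (0.64), with total counts (0.70) and in a fit of only the libraries compared (0.81, adjusted p = 0.0611, edgeR). SPS4 in rrp6 cells had no call and gained one without rrp6 45 min C (0.82).

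The deletions changed these genes less evenly than heat did. Against WT at the same time, 31 of 81 pairs were called, 14 higher and 17 lower, and total-count scaling, with the all-gene median moved by 0.01 to 0.76, gave 19 higher and 10 lower. At 0 min 3 genes were higher and 1 lower in mpk1rrp6, 2 and 1 in rrp6 and 1 and 2 in mpk1, where 14.9% and 11.6%, 9.36% and 4.46%, and 9.81% and 5.30% of all genes were. At 10 min none was higher and 2, 2 and 1 were lower in mpk1rrp6, rrp6 and mpk1, beside 18.7%, 14.3% and 22.5% of all genes higher and 18.6%, 16% and 22.5% lower, with 0 higher also at an unadjusted p under 0.05 and by DESeq2. At 45 min 2 were higher and 3 lower in mpk1rrp6, 1 and 3 in rrp6 and 5 and 2 in mpk1, where 24.3% and 28.5%, 20.2% and 26.6%, and 30% and 31.6% of all genes were.

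**Figure D4:**
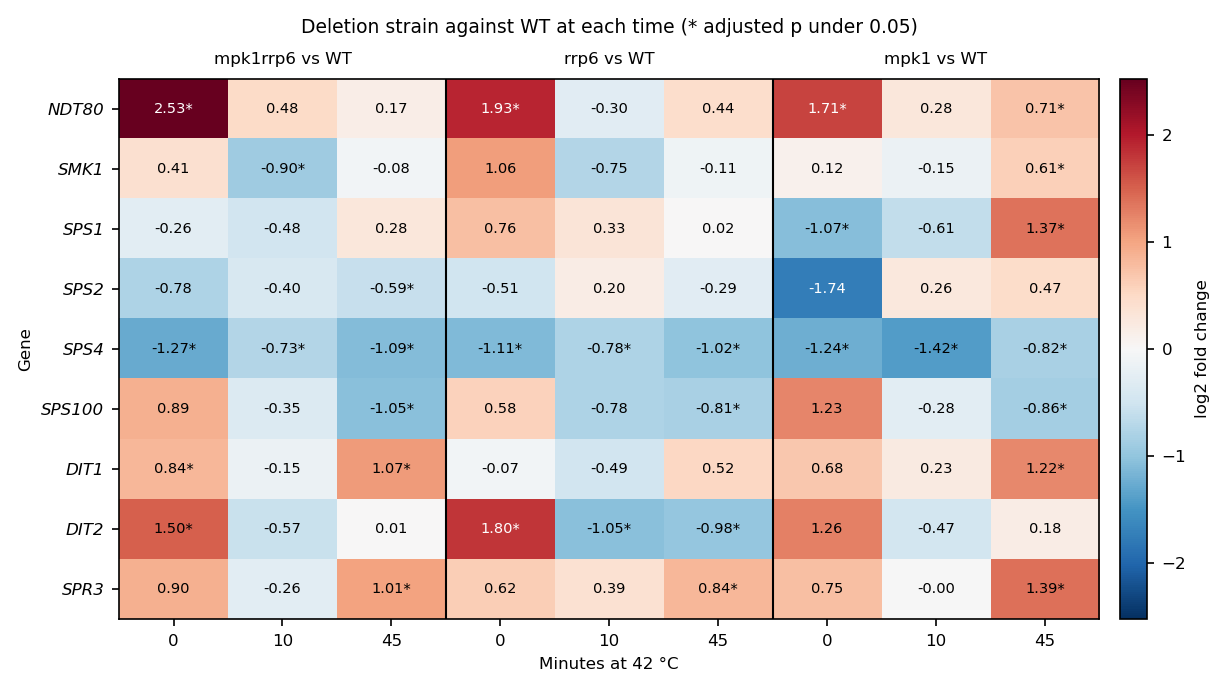
Log2 fold change of each gene in a deletion strain against WT at the same time, with n = 3 libraries per group. Colours run from blue (lower) to red (higher), and asterisks mark an adjusted p under 0.05. The row of SPS4 is blue and marked in all 9 columns, and NDT80 is red and marked at 0 min in all 3 deletion strains.

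SPS4 was lower in every deletion strain at every time. At 0 min it differed from WT by −1.27 ± 0.29 in mpk1rrp6, −1.11 ± 0.28 in rrp6 and −1.24 ± 0.29 in mpk1. At 10 min the values were −0.73, −0.78 and −1.42, and at 45 min −1.09, −1.02 and −0.82, in the same order of strains. The directions held with total counts, where 2 of these calls were lost, mpk1 at 45 min (−0.07) and mpk1rrp6 at 10 min (−0.59). At 10 min the mpk1rrp6 call was also lost in a fit of only the libraries compared (−0.69), without both letter C libraries (−0.54) or without 1 of WT 10 min A (−0.65), WT 10 min B (−0.55) and mpk1rrp6 10 min C (−0.54). The rrp6 call at 10 min was lost without 1 of WT 10 min A (−0.70), rrp6 10 min A (−0.67), WT 10 min B (−0.60) and rrp6 10 min C (−0.80).

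SPS100 ended lower in all 3 deletion strains. At 45 min it averaged 138 ± 37.8 CPM in mpk1rrp6, 163 ± 67.2 in rrp6 and 158 ± 52.9 in mpk1, against 287 ± 68.8 CPM in WT (SD, n = 3 each). The differences were −1.05 ± 0.29, −0.81 ± 0.29 and −0.86 ± 0.29, with edgeR's adjusted p of 0.00365, 0.0231 and 0.0117, and the rrp6 libraries overlapped those of WT. With total counts none of the 3 was called (−0.58, −0.54 and −0.10). The rrp6 call was lost in a fit of only the libraries compared (−0.73) and without rrp6 45 min B (−0.68), WT 45 min C (−0.62) or rrp6 45 min C (−0.62), and the mpk1 call without mpk1 45 min B (−0.62) or WT 45 min C (−0.66).

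SPR3 went the other way, with 9.86 ± 1.24 CPM in mpk1rrp6, 8.78 ± 1.33 in rrp6 and 12.8 ± 0.855 in mpk1, against 4.16 ± 2.03 CPM in WT at 45 min. It was higher by 1.01 ± 0.32, 0.84 ± 0.33 and 1.39 ± 0.30, with edgeR's adjusted p of 0.00931, 0.0348 and 0.000188. The WT libraries A, B and C at 45 min held 3, 31 and 7 counts of SPR3, and without B the mpk1rrp6 and rrp6 values were 1.60 and 1.43. The rrp6 call was lost without 1 of WT 45 min A (0.65), rrp6 45 min A (0.86), rrp6 45 min B (0.73) and WT 45 min C (0.76).

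DIT1 was higher than in WT at 45 min by 1.07 ± 0.23 in mpk1rrp6 and 1.22 ± 0.22 in mpk1, and at 0 min by 0.84 ± 0.26 in mpk1rrp6. The 0 min call was lost without mpk1rrp6 0 min A (0.74) or WT 0 min B (0.67). DIT2 was higher at 0 min in mpk1rrp6 (1.504 ± 0.49) and rrp6 (1.80 ± 0.47), and lower at 10 and 45 min in rrp6 (−1.05 ± 0.33 and −0.98 ± 0.29). The direction of DIT2 in rrp6 cells against WT was thus opposite before and after heat. The 0 min calls rested on 12 WT counts, and were lost without WT 0 min A (1.19 in mpk1rrp6 and 1.49 in rrp6) or WT 0 min B (1.15 in mpk1rrp6 and 1.45 in rrp6). Without mpk1rrp6 0 min C the mpk1rrp6 value was 1.32 and not called, and without WT 0 min C the values were 2.33 in mpk1rrp6 and 2.63 in rrp6. The 10 min call was lost without 1 of WT 10 min A (−0.89), WT 10 min B (−0.93), rrp6 10 min B (−0.96) and rrp6 10 min C (−1.01), and the 45 min call with total counts (−0.72).

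For SPS1 the sign of the mpk1 difference also turned. It was −1.07 ± 0.35 at 0 min (adjusted p = 0.0339, edgeR) and 1.37 ± 0.28 at 45 min (adjusted p = 0.000112). The 0 min call was lost with total counts (−0.91) and without 1 of WT 0 min A (−1.12), mpk1 0 min A (−1.23), WT 0 min B (−1.10), mpk1 0 min B (−0.78) and WT 0 min C (−1.002), and the 45 min call was kept in all alternatives run. SMK1 was lower in mpk1rrp6 at 10 min (−0.90 ± 0.29), a call lost in a fit of only the libraries compared (−0.84), without both letter C libraries (−0.75) or without WT 10 min A (−0.74), mpk1rrp6 10 min A (−0.84) or mpk1rrp6 10 min C (−0.75). SMK1 was higher in mpk1 at 45 min (0.61 ± 0.27, adjusted p = 0.0497), which was lost under DESeq2 (0.55), with its size factors in edgeR (0.55), with no low-count filter (0.61), with the replicate letter as a block (0.60, adjusted p = 0.0556) and in a fit of only the libraries compared (0.60). The call was also lost in 24 of the 36 fits that left out 1 library, with values from 0.49 to 0.74 over all 36, among them those without WT 45 min A, B or C (0.54, 0.68 and 0.63) and without mpk1 45 min A (0.58) or C (0.49). SPS2 was lower in mpk1rrp6 at 45 min (−0.59 ± 0.24, adjusted p = 0.0443), lost under DESeq2 (−0.60), with no low-count filter (−0.57), with total counts (−0.10), in a fit of only the libraries compared (−0.51) and in 15 of the 36 fits that left out 1 library. Without mpk1rrp6 45 min B it was −0.37, without WT 45 min C −0.38 and without WT 45 min A −0.54, and in the other 12 it was −0.57. In mpk1 at 45 min SPS2 stood at 0.47 without a call and passed with the replicate letter as a block (0.46, adjusted p = 0.0455), with total counts (1.22) and without 1 of mpk1 45 min B (0.56), mpk1rrp6 45 min B (0.47) and WT 45 min C (0.68).

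Loss of both genes was then set against loss of 1. Of 54 pairs 7 were called, 3 higher and 4 lower in mpk1rrp6. Against mpk1, 1 of 9 was higher at 0 min (4.71% of all genes), 0 at 10 min (20.1% of all genes in either direction) and 3 were lower at 45 min (13.1%). Against rrp6, 1 was higher and 1 lower at 0 min (5.70% and 4.25%), 0 at 10 min (8.63% in either direction) and 1 higher at 45 min (7.96%). For the counts of 0 at 10 min, an unadjusted p under 0.05 was reached by 3 genes against mpk1 and 4 against rrp6, and DESeq2 called 1 and 0. SPS1 and SPS2, the tandem pair, were both lower in mpk1rrp6 than in mpk1 cells at 45 min, by −1.09 ± 0.26 and −1.06 ± 0.21 with no overlap of libraries, and SMK1 by −0.68 ± 0.25. The SMK1 call was lost under DESeq2 (−0.64), with its size factors in edgeR (−0.64), in a fit of only the libraries compared (−0.70), without both letter C libraries (−0.50) and in 10 of the 36 fits that left out 1 library. Of those 10, mpk1 45 min A (−0.66) and C (−0.57) and mpk1rrp6 45 min B (−0.69) and C (−0.50) were among the libraries compared, and the other 6 gave −0.67. DIT1 at 0 min and DIT2 at 45 min were higher in mpk1rrp6 than in rrp6, by 0.91 ± 0.22 and 0.998 ± 0.28, and SPS1 at 0 min was lower by −1.02 ± 0.27. The DIT2 call was lost in a fit of only the libraries compared (0.99) and without rrp6 45 min A (0.997), mpk1rrp6 45 min A (0.88) or rrp6 45 min C (0.94), and the SPS1 call without mpk1rrp6 0 min A (−0.84) or B (−0.96).

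Whether the heat response itself differed from that of WT was tested by the difference of the 2 changes, in which all comparisons share the WT libraries. Of 54 such values 13 were called, 1 higher and 12 lower, and with total counts 4 higher and 9 lower. At 10 min 3, 3 and 2 of the 9 were lower in mpk1rrp6, rrp6 and mpk1, beside 11%, 8.59% and 13.3% of all genes. At 45 min 2 and 2 were lower in mpk1rrp6 and rrp6, beside 21.6% and 21.1%, and 1 was higher in mpk1, beside 17.6%. NDT80 and DIT2 made up 10 of the 12 lower values. NDT80 stood at −2.04 ± 0.47, −2.22 ± 0.51 and −1.43 ± 0.49 at 10 min in mpk1rrp6, rrp6 and mpk1, and DIT2 at −2.07 ± 0.57, −2.86 ± 0.57 and −1.73 ± 0.59. At 45 min NDT80 stood at −2.35 ± 0.52 in mpk1rrp6 and −1.49 ± 0.52 in rrp6, and DIT2 at −1.49 ± 0.57 and −2.79 ± 0.55 in these strains. SMK1 in rrp6 cells (−1.81 ± 0.52) and DIT1 in mpk1rrp6 cells (−0.99 ± 0.33), both at 10 min, were the other 2. SPS1 in mpk1 cells at 45 min was the 1 higher value, at 2.44 ± 0.45 (adjusted p = 7.65e-05, edgeR), and was called in all alternatives run. SPS100, SPS2 and SPR3, with 4 to 6 counts in WT at 0 min, had no call in these tests, with SE from 0.67 to 1.13. DESeq2 called SPS100 lower at 45 min in mpk1rrp6 (−1.99) and mpk1 (−2.20), and total counts SPS2 higher at 45 min in mpk1 (2.84).

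Several of these calls rested on single libraries. Leaving out 1 library at a time ended the call of DIT1 in mpk1rrp6 at 10 min in 7 fits, without mpk1rrp6 0 min A (−0.90), mpk1rrp6 10 min A (−0.94) or B (−0.89), WT 0 min B (−0.82) or C (−1.03) and WT 10 min A (−0.98) or B (−0.91). NDT80 in mpk1 at 10 min lost its call in 7, without mpk1 0 min A (−1.40) or C (−1.41), mpk1 10 min B (−1.28) or C (−1.39), WT 0 min B (−1.23) or C (−1.19) and WT 10 min B (−1.06). DIT2 in mpk1 at 10 min lost it in 6, without mpk1 0 min A (−1.46), mpk1 10 min B (−1.49), WT 0 min A (−1.42) or B (−1.38) and WT 10 min A (−1.57) or B (−1.61). WT 0 min B thus ended all 3 of these calls. DIT2 in mpk1rrp6 at 45 min lost its call in 8, without mpk1rrp6 0 min A (−1.45) or C (−1.29), mpk1rrp6 45 min B (−1.36) or C (−1.50), WT 0 min A (−1.16) or B (−1.12) and WT 45 min A (−1.45) or B (−1.38). NDT80 in rrp6 at 45 min lost it in 5, without rrp6 0 min B (−1.25), WT 0 min B (−1.24) or C (−1.20) and WT 45 min A (−1.28) or B (−1.57). Without WT 0 min C, DIT2 in mpk1rrp6 at 45 min stood at −2.30. DIT2 in mpk1rrp6 at 10 min was lost without WT 0 min B (−1.72), and SMK1 in rrp6 at 10 min without WT 0 min A or C (−1.64 each) or rrp6 0 min C (−1.71). With total counts NDT80 and DIT2 in mpk1 at 10 min (−1.34 and −1.66), DIT2 in mpk1rrp6 at 45 min (−1.27) and NDT80 in rrp6 at 45 min (−1.41) were not called. In fits of only the libraries compared NDT80 and DIT2 in mpk1 at 10 min (−1.46 and −1.76) and NDT80 in rrp6 at 45 min (−1.44) were not called. Without both letter C libraries DIT2 in mpk1rrp6 at 45 min was not called (−1.51, adjusted p = 0.0518, edgeR). NDT80 in mpk1rrp6 at both times and in rrp6 at 10 min, and DIT2 in rrp6 at both times, kept their calls in each of these fits.

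The additivity of the deletions was tested as mpk1rrp6 minus mpk1 minus rrp6 plus WT. At 0 min 0 of 9 departed (1.05% of all genes), with 3 at an unadjusted p under 0.05 and 0 by DESeq2, and a fit of only the libraries compared called SPS4 (1.11). At 10 min SPS4 stood above the sum of the single effects by 1.46 ± 0.37 (10.3% of all genes higher), its differences from WT being −0.73 in mpk1rrp6, −0.78 in rrp6 and −1.42 in mpk1. In a fit of only the libraries compared that departure was 1.44 and not called (adjusted p = 0.0751, edgeR). At 45 min SPS1 and SPR3 stood below it by −1.10 ± 0.40 and −1.22 ± 0.41 (15.7% of all genes lower). The SPS1 call was lost without both letter C libraries (−0.98) or without 1 of WT 45 min A (−1.07), mpk1 45 min A (−0.99), WT 45 min C (−0.84), rrp6 45 min C (−0.93) and mpk1rrp6 45 min C (−0.99), and stood at −1.69 without WT 45 min B. The SPR3 call was lost without 1 of WT 45 min A (−1.03), rrp6 45 min B (−1.10) and mpk1rrp6 45 min B (−1.11). With total counts 1 gene was higher and 6 were lower over the 3 times.

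Other genes of the programme were counted from lists by stage. Of 40 tested genes of middle sporulation outside the set, 35 rose and 0 fell in WT at 10 min and 38 rose and 1 fell at 45 min, where 39.2% and 42.6% of all tested genes rose. The median log2 change was 2.11 and 2.88, beside 0.07 and 0.10 over all genes. In mpk1rrp6 cells 31 and 36 rose, in rrp6 cells 35 and 35 and in mpk1 cells 36 and 39, each with 1 that fell, and medians at 45 min were 3.16, 3.04 and 3.76. Of all tested genes 38.4%, 38.1% and 41.6% rose in these strains at 10 min and 40.8%, 40.8% and 43.9% at 45 min. LDS1, of the lipid droplet proteins at the forming spore wall, had 2 counts in WT at 0 min and 279 and 243 at 10 and 45 min, OSW1 had 2, 191 and 380, and OSW2, another outer spore wall gene, had 10, 1017 and 1364. These counts are not scaled by depth, and do not compare the level at 10 min with that at 45 min. WT 45 min A and C had 2235918 and 2755583 counted reads, against 5055049 to 10134101 in the WT libraries at 10 min. SPR28, the septin partner of SPR3, rose by 4.28 and 4.79 in WT, and SPS22, the paralog of SPS2, by 3.44 and 3.97.

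Of 25 tested early meiotic genes, which act before NDT80, 21 rose and 2 fell in WT at 10 min and 22 rose and 1 fell at 45 min, with medians of 1.87 and 2.94. Of all tested genes 39.2% and 42.6% rose in WT at these times. At 45 min 18 rose and 3 fell in mpk1rrp6, 19 rose and 2 fell in rrp6 and 19 rose and 3 fell in mpk1. In these comparisons 40.8%, 40.8% and 43.9% of all tested genes rose and 37.1%, 38.9% and 38.2% fell. The medians of the early genes there were 1.40, 1.97 and 2.25. RIM4, an RNA-binding activator of early meiosis, rose by 5.65 ± 0.36 and 6.22 ± 0.36 in WT, from 13 counts at 0 min. Among 15 regulators of the programme 7 rose and 5 fell in mpk1rrp6, 6 rose and 6 fell in rrp6, 8 rose and 4 fell in mpk1 and 10 rose and 3 fell in WT at 45 min. Of all tested genes 40.8%, 40.8%, 43.9% and 42.6% rose there and 37.1%, 38.9%, 38.2% and 38% fell, in the same order of strains. The medians over the 15 were 0.09, −0.05, 0.35 and 1.05 in that order. At 10 min 5 rose and 3 fell in mpk1rrp6, 5 and 5 in rrp6, 5 and 1 in mpk1 and 9 and 2 in WT. Beside these, 38.4%, 38.1%, 41.6% and 39.2% of all tested genes rose and 36.3%, 37%, 35.9% and 35.2% fell. The rises in WT at 45 min were led by NRG1, a repressor of glucose-repressed genes (6.54 ± 0.40), the kinase gene RIM15 (3.37 ± 0.21) and RIM101 (2.54 ± 0.17). At 45 min 8, 10 and 8 of the 15 were lower than in WT in mpk1rrp6, rrp6 and mpk1, and 1, 3 and 1 were higher. Of all genes 28.5%, 26.6% and 31.6% were lower there and 24.3%, 20.2% and 30% higher. The lowest of the 15 in mpk1rrp6 and rrp6 was UME6, which encodes a repressor of early meiotic genes, at −2.22 ± 0.18 and −2.67 ± 0.19. At 0 min RME1, a haploid repressor of meiosis, was higher than in WT by 0.87 ± 0.22 in mpk1rrp6, 0.72 ± 0.22 in rrp6 and 1.13 ± 0.22 in mpk1. Of the 15 regulators 3, 1 and 1 were higher than in WT at 0 min in mpk1rrp6, rrp6 and mpk1, and 0, 0 and 1 were lower. In these comparisons 14.9%, 9.36% and 9.81% of all genes were higher and 11.6%, 4.46% and 5.30% lower.

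Relatives expressed in growing cells were set beside the genes. YGP1, the secreted glycoprotein paralog of SPS100, rose in WT by 3.72 and 4.75 at 10 and 45 min, from 21.1 ± 1.45 CPM at 0 min, and unlike SPS100 was higher than in WT in all 3 deletion strains at 45 min, by 1.35, 2.09 and 1.12. The growth septin genes CDC3, CDC10, CDC11 and CDC12 changed by −0.20 to −1.38 in WT at 45 min, where SPR3 rose by 3.58. ECM33, of the SPS2 family and expressed in growing cells, changed by −0.45 in WT at 45 min. Of the mitogen-activated protein kinase genes beside SMK1, FUS3 and KSS1 fell by 0.50 and 1.08 in WT at 45 min and HOG1 rose by 0.87.

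**Figure D5:**
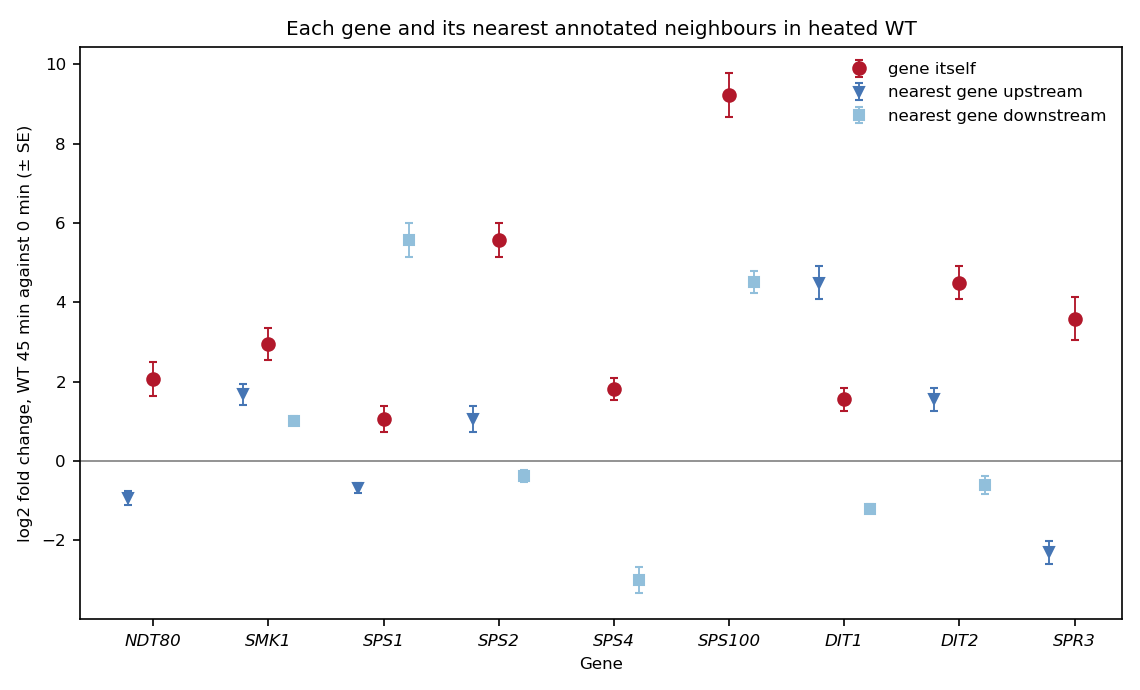
Log2 fold change ± SE in WT at 45 min against 0 min for each gene (red circles) and its nearest annotated neighbour upstream (dark blue triangles) and downstream (light blue squares), n = 3 libraries per group. Neighbours with 3 or fewer counts in WT at 0 min or without counts in the files are not drawn. The genes themselves lie above 0, and neighbours outside the set lie both above and below it.

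Of the 10 neighbours outside the set with more than 3 counts in WT at 0 min, 3 were called higher and 7 lower in WT at 45 min, where 42.6% of all tested genes were higher and 38% lower. EPT1, upstream of NDT80, stood at −0.93, AGE1, upstream of SPS1, at −0.67, PEF1, upstream of SPR3, at −2.30 and RPL20B, downstream of SPS4, at −3.00, all called lower. RPB7, URH1 and URC2, downstream of DIT1, DIT2 and SPS2, were called lower at −1.20, −0.61 and −0.38. Both sides of SMK1 were called higher, YPR053C at 1.68 and SEC8 at 1.01, against 2.94 for SMK1. YHR138C, downstream of SPS100, was called higher at 4.51, and YHR139C-A upstream, at 0 counts in WT at 0 min, had 18 and 9 counts at 10 and 45 min, not scaled by depth.

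The genes whose levels ran most alike were sought among genes averaging at least 5 CPM, by Pearson's r of log2 CPM over the 12 group means. The points share strains, times and scaling, and these r are descriptions. For SPS100 they were OSW2 and RIM8 (both 0.997, and 0.980 and 0.985 over the 36 libraries), and for SPS2 the mitotic phosphatase gene MIH1 (0.992) and the stress-inducible Hsp70 gene SSA3 (0.989). For SPR3 they were ULI1 (0.990) and SPS22 (0.988), for SMK1 YIL108W (0.984) and HSV2 (0.977), for DIT1 ATG36 (0.974) and AVT6 (0.972), and for DIT2 SKG1 (0.976) and ATG11 (0.972). Those of SPS4 were YIP3 (0.962) and CDC9 (0.951), those of SPS1 KTR2 (0.913) and YPL088W (0.894), and those of NDT80 YOL163W (0.881) and PLN1 (0.853). Within the set r was highest for SPS2 with SPS100 (0.978) and SMK1 with DIT2 (0.970), and NDT80 had its highest with DIT2 (0.676) and its lowest with SPS4 (0.126). The tandem pair SPS1 and SPS2 stood at 0.580 and the divergent pair DIT1 and DIT2 at 0.879.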

How the data were processed

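Total RNA of 36 yeast libraries had been sequenced by the authors, and the deposited files hold read counts per open reading frame, made with HISAT2 2.1.0 and HTSeq on build R64, per the submitters' processing notes. No source used here gives the strand setting of the counting. The 5 summary lines of each file, among them reads on no feature (2.035% to 10.065%) and ambiguous reads (0.616% to 1.841%), stayed out of library sizes and tests.

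Counts were tested with edgeR 4.0.16 in R 4.3.3 (quasi-likelihood test, trimmed-mean factors of 0.6024 to 1.408, common biological coefficient of variation 0.1535) in 1 fit with 12 group coefficients, after a filter by group with a minimum count of 10 and total of 15. It kept 6005 genes, among them all 9 described here. P-values, 2-sided, were adjusted by Benjamini and Hochberg over these genes within each of 36 comparisons and called at 0.05. They rest on an estimate of the spread between replicates that all 12 groups share, so that libraries outside a comparison also bear on its p-value. The SE is the size of the log2 fold change over the square root of its F statistic. CPM use the scaled library sizes. The script was tested on simulated data. Figures and tables used Python 3.11.15.

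The genes and lists were chosen with earlier results of these data known. Beside the 9, the text names up to 3 called genes per list with the largest changes in a comparison, the nearest annotated genes, the relatives, and the 2 genes with the highest r of log2 CPM (prior count 2). Of 6600 rows 5917 matched the R64 annotation. Deviations of same-letter libraries correlated above 0.1 for each letter in 8 of 27 comparisons. These were 45 against 10 min in mpk1rrp6, mpk1 and WT, mpk1rrp6 against WT at all times and mpk1 against WT at 0 and 45 min. There the letters were taken to pair the samples, but the reported values come from the fit without the letter. The letter entered only in the replicate block. Alternatives were DESeq2 1.42.0, its size factors in edgeR, total counts, other filters, the replicate block, only the libraries compared, and leaving out libraries.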

Additional observations from a re-analysis of the deposited data

Results flagged for a closer look

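Heat responses that differed from that of WT, by the interaction contrast in edgeR with Benjamini-Hochberg adjustment over 6005 genes, were found for 5 of the 9 genes, with n = 3 libraries per group. That number pools 6 comparisons, in each of which 13.2% to 42.3% of all tested genes were called in either direction. The share of all genes called in at least 1 of the 6 is not given, so the 5 of 9 cannot be set against these shares. For NDT80 the response minus that of WT was −2.04 at 10 min and −2.35 at 45 min in mpk1rrp6 (adjusted p = 0.0028 and 0.000686), −2.22 and −1.49 in rrp6 (adjusted p = 0.0036 and 0.0275) and −1.43 at 10 min in mpk1 (adjusted p = 0.037). For DIT2 it was −2.07 and −1.49 in mpk1rrp6 (adjusted p = 0.00999 and 0.0393), −2.86 and −2.79 in rrp6 (adjusted p = 0.00121 and 0.000265) and −1.73 at 10 min in mpk1 (adjusted p = 0.0338). SMK1 stood at −1.81 in rrp6 at 10 min (adjusted p = 0.0198), DIT1 at −0.99 in mpk1rrp6 at 10 min (adjusted p = 0.0341) and SPS1 at 2.44 in mpk1 at 45 min (adjusted p = 7.65e-05). All of these share the WT libraries, in which NDT80, DIT2 and SMK1 had 15, 12 and 12 counts at 0 min. The calls kept whichever 1 library was left out were those of NDT80 in mpk1rrp6 at both times and in rrp6 at 10 min. Those of DIT2 in rrp6 at both times and of SPS1 in mpk1 at 45 min were also kept, and the others were lost in at least 1 such fit.

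Departures from the sum of the single deletions, by the contrast of all 4 strains in the same fit, were found for SPS4 at 10 min (1.46, adjusted p = 0.00782) and for SPS1 and SPR3 at 45 min (−1.10 and −1.22, adjusted p = 0.0312 and 0.0198). Of all tested genes 16.8% departed in either direction at 10 min and 38.1% at 45 min. The SPS4 call was lost in a fit of only the libraries compared. Those of SPS1 and SPR3 were lost in 5 and 3 of the fits that left out 1 library.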

How the results depend on the processing

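Each of 324 values, 9 genes in 36 comparisons, was recomputed under 44 settings, apart from the filter on a mean of 5 CPM, which kept 216 of the 324. Of these 14148 recomputed values 13822 kept their side of the threshold and their direction, 219 lost a call, 106 gained one and 1 turned its direction, that of DIT1 in mpk1rrp6 cells at 10 against 0 min (−0.040 with total counts). The counts of heated genes called higher (60) and of genes higher at 45 than at 10 min (28) stayed within 1.5 times under all settings. Total counts gave 5 in place of 0 genes lower after heat, 10 in place of 17 lower than in WT, 11 in place of 7 differing between mpk1rrp6 and a single deletion with 7 in place of 4 lower, 4 in place of 1 with a higher response than WT, and 7 in place of 3 departures from additivity with 6 in place of 2 lower. The filter on a mean of 5 CPM, which by its construction keeps 6 of the 9 genes, gave 6 in place of 14 higher than in WT and 7 in place of 13 response differences, 6 of them lower in place of 12. Without both letter C libraries there were 6 departures from additivity, 2 higher and 4 lower. Leaving out 1 library at a time gave 0 to 1 genes lower after heat, 26 to 33 differing from WT, 5 to 9 between mpk1rrp6 and a single deletion, 7 to 14 response differences (6 to 13 lower) and 2 to 6 departures (1 to 3 higher and 1 to 4 lower). With the replicate block the 6 counts were 60, 28, 31, 8, 13 and 4. Among paired comparisons the block changed the calls of SMK1 and SPS2 in mpk1 against WT at 45 min and no other, and where the letters did not pair the samples it added SPS2 in mpk1rrp6 against mpk1 at 10 min (−0.68) and in the additivity contrast at 45 min (−0.74). DESeq2 gave 61, 28, 28, 7, 15 and 3. Fitting only the libraries compared gave 59, 26, 28, 6, 10 and 3, ended 15 calls and added 5: SPS1 in rrp6 (0.76) and DIT1 in mpk1 (0.73) against WT at 0 min, SPS100 in rrp6 against WT at 10 min (−0.77), NDT80 in mpk1rrp6 against rrp6 at 0 min (0.66) and SPS4 in the additivity contrast at 0 min (1.11). The size factors of DESeq2 in edgeR ended 3 calls and added 1, and no low-count filter ended 2. The causes were not tested. Depth limits the low values, both unheated and heated. By unscaled totals 3 counts equal 0.249 to 1.34 CPM. By the scaled library sizes used for CPM, the 3 counts of SPR3 in WT 45 min A equal 2.23 CPM. That heated library was the shallowest, with 2235918 counted reads. Before heat, SPS2 and SPR3 had 1 or 2 counts in each WT library at 0 min.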
